A study of Mus musculus with 18 samples.

Results

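The data described here compare mouse epidermis with and without the aryl hydrocarbon receptor (AhR) early after its barrier was damaged. They are 6 of the 18 arrays of the study, the 3 titled as KO and the 3 titled as WT that were collected 6 h after tape stripping, and 23521 rows of the deposited table that name a single gene symbol. KO mice were AhR-/- animals of the line B6.129-AhRtm1Bra/J, in which the gene is disrupted in every cell of the body, and WT mice were AhR+/+ littermates. All were females of the background B6;129, and the labels state no age. The shaved back was stripped with Tegaderm film, an adhesive dressing that carries away the outer cornified cells, and RNA came from sheets of epidermis, so keratinocytes and the immune cells lodged among them were read together. The other 12 arrays, unstressed skin (0 h) and skin at 24 h after stripping with 3 arrays per genotype each, helped to estimate the spread between arrays and were used to ask whether a difference at 6 h also existed before or later. Both genotypes at 6 h had received the same shaving and stripping.

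AhR is a transcription factor of the bHLH-PAS family that waits in the cytoplasm until a small molecule binds it, then pairs with ARNT in the nucleus and binds DNA at elements built around the letters GCGTG. Its best known targets are the detoxifying enzymes of the CYP1 family and the feedback inhibitor AHRR. In skin it is active in keratinocytes, Langerhans cells and T cells, and it is needed for the upkeep of the epidermal gamma-delta T cells of the mouse. Tape stripping sets off an injury response in which keratinocytes switch on immediate early transcription factors, alarmins, cytokines and the wound keratins before they divide and rebuild the barrier.

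Every value given for an array is on a log scale taken as base 2, with the median of that row over all 18 arrays set to 0 by the authors, so a value says how far an array lies above or below the middle of the study for that gene. A difference is always KO minus WT at 6 h unless another time is named, with its standard error (SE) from the fit over all 18 arrays, and n = 3 arrays per genotype throughout. A row is called higher or lower where limma's moderated test gave an adjusted p under 0.05 over all 23521 rows. The values hold no absolute level, so the presence of keratinocyte markers in the sheets could not be checked, nor could signal over background. Array medians at 6 h lay between -0.01 and 0.01 and the SD of an array over all rows between 0.134 and 0.204. KO replicate 1 received the lowest weight of the 18 arrays, 0.508, when limma was asked to estimate array weights.

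Ahr itself was lower in KO. KO replicates 1, 2 and 3 read -0.63, -0.65 and -0.77, and WT replicates 1, 2 and 3 read 0.06, 0.58 and 0.64. The groups did not overlap, and WT replicate 1 lay nearest to the KO arrays. The difference was -1.11 (SE 0.143, adjusted p = 0.00549). The call held whichever of the 6 arrays was left out, with adjusted p between 0.00149 and 0.0354. It is not known here whether the row's probes read the disrupted stretch or another part of the gene, so the check of the labels is partial. Ahr lies on chromosome 12, where 15 of 798 rows passed (1.88%).

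At 6 h, 513 of 23521 rows passed (2.18%), of which 86 (0.366%) were higher in KO and 427 (1.82%) lower. The lower genes outnumbered the higher ones although the median difference over all rows was 0.01 and 52.5% of rows lay above 0. Differences were moderate, with a median size of 0.57 among the higher rows and 0.53 among the lower ones, and 12 higher and 9 lower rows reached a difference of at least 1. The lower rows had medians of -0.26, -0.33 and -0.41 in KO replicates 1 to 3 and of 0.06, 0.19 and 0.27 in WT replicates 1 to 3. The arrays of the genotypes did not overlap in 508 of the 513 rows and in 17.7% of all rows, with every KO array above every WT array in 7.42% of all rows and below in 10.3%. Because whole sheets were measured, fewer cells of a type and less RNA per cell cannot be told apart for any gene below.

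The count of passing rows rested on a few arrays. Leaving out KO replicate 1 or WT replicate 1 raised it to 1034 or 1068. Leaving out KO replicate 2 lowered it to 182, and the count fell to 24 when KO replicate 3 was omitted, to 46 when WT replicate 2 was, and to 16 when WT replicate 3 was. Of the 513 rows, 13 passed in all 6 of these fits, all lower in KO. They were Ahr, Trgv5, Il22ra1 and, outside the rule for named genes and listed after their values were seen, Slco2b1, Clstn1, Ank, L1cam, Igsf9, Osbpl5, Phyhip, Mob2, Zbtb22 and Hpse. A fit of the 6 arrays of 6 h alone called 0 rows in limma, with 3152 at an unadjusted p under 0.05 against 3713 in the fit of 18 arrays. At 6 h, the replicates numbered 1 of both genotypes carry label numbers from 3000 up and the others carry numbers below 3000. No label explains these numbers. A fit of all arrays of lower numbers, those of 0 h included, called 1660 rows. At 6 h, the genotypes did not overlap in 508 of the 513 rows, which fixes their sign in any subset of these arrays. A shared sign is therefore no test, and 511 rows had the same sign in the 4 arrays of lower numbers and in the pair of higher numbers. That pair is 1 array per genotype, so limma's count of 0 within it (1437 at an unadjusted p under 0.05) assumes that these arrays vary like those of the other times and says nothing about stability. The plot of calls by the arrays fitted sets these counts side by side.

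**Figure D1:**
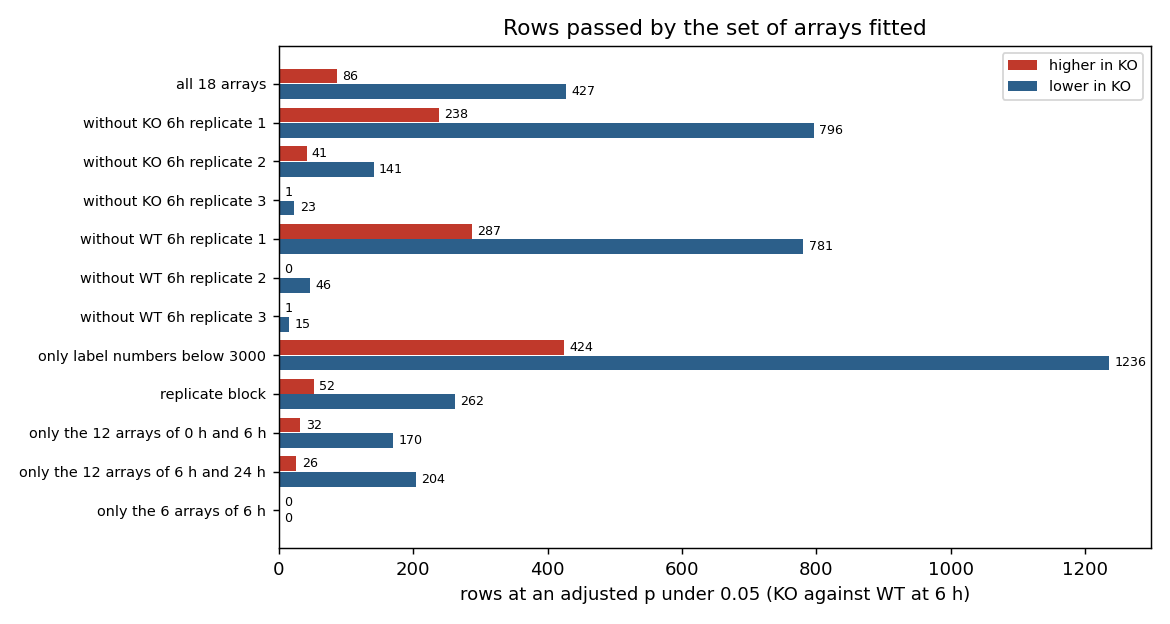
Number of rows higher (red) and lower (blue) in KO at an adjusted p under 0.05, on the x axis, for the fit of all 18 arrays, for fits that leave out 1 array of 6 h, and for fits of other sets of arrays or with the replicate number as a block. The count is 86 higher and 427 lower with all arrays, rises without replicate 1 of either genotype, falls to 15 lower and 1 higher without WT replicate 3, and is 0 with only the 6 arrays of 6 h.

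The volcano plot shows the size of each difference against its p. The largest passing difference upwards belonged to the wound keratin gene Krt6b and the largest downwards to Trgv5, a variable segment of the gamma T cell receptor. The gene with the smallest p was also Trgv5.

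**Figure D2:**
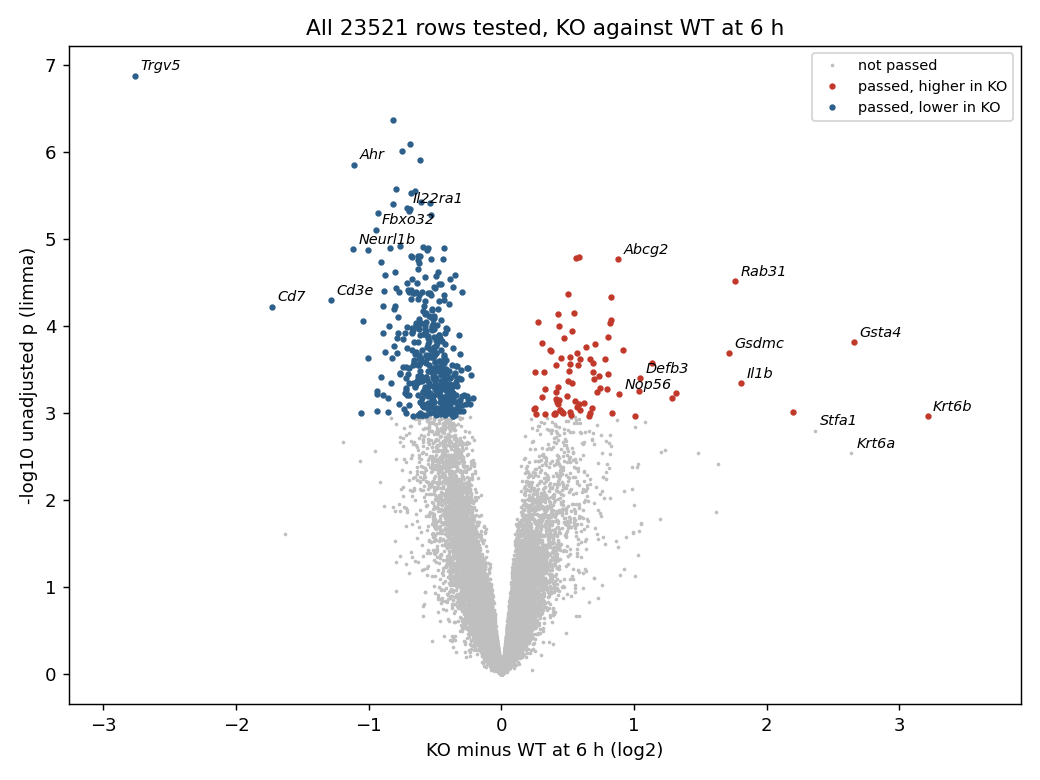
Difference between KO and WT at 6 h (x axis, log2) against the unadjusted p of limma's moderated test (y axis, -log10) for each of 23521 rows, with the 86 rows higher in KO in red, the 427 lower in blue and the others in grey. Krt6b at 3.21 and Gsta4 at 2.66 lie farthest to the right among passing rows and Trgv5 at -2.76 farthest to the left, while most blue points lie between 0 and -1.

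Keratins 6 and 16 are built by keratinocytes at wound edges and in hyperproliferative skin. Krt6b read 3.90, 0.82 and 2.27 in KO replicates 1 to 3 against -1.40, -1.24 and -0.01 in WT replicates 1 to 3. No KO array fell within the WT range, and KO replicate 1 was the highest and KO replicate 2 the lowest of its group. The difference was 3.21 (SE 0.794, adjusted p = 0.0499), a 9.27-fold higher level if the logs are base 2. Krt6b is close to the threshold, and its adjusted p was 0.0985 without KO replicate 1, 0.0452 without KO replicate 2 and between 0.0819 and 0.161 without any other array. Within the lower label numbers the difference was 2.17 and within the higher ones 5.30. Of the 5 wound keratins measured, 1 passed (20%, against 0.366% of all rows that were higher), and the list had a median of 1.63. Krt6a differed by 2.64 (adjusted p = 0.08) and Krt16 by 1.63 (adjusted p = 0.0902), with no overlap between genotypes for either, whereas Krt17 differed by -0.18 (adjusted p = 0.643) and Krt75 by 0.31 (adjusted p = 0.224). Krt6a and Krt6b are near-identical copies, so the probes may share signal between them.

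Il1b, the gene of the inflammatory cytokine interleukin 1 beta, was higher in KO. Its values were 1.59, 1.09 and 1.48 in KO and -0.23, -0.62 and -0.40 in WT, with all KO arrays above all WT arrays and little spread within either genotype. The difference was 1.804 (SE 0.402, adjusted p = 0.0346), and it was nearly equal in the lower label numbers, 1.79, and in the higher ones, 1.82. Its call was lost without KO replicates 1, 2 or 3 or WT replicates 2 or 3 (adjusted p of 0.0529, 0.0631, 0.126, 0.126 and 0.133). In a list of 23 measured genes of the interleukin 1 family, its receptors and inflammasome proteins, Il1b was the 1 that was higher and 2 were lower. Together they were 13.0% of the list, while 2.18% of all rows passed. The lower ones were Il1f5, the antagonist of the interleukin 36 receptor, at -0.80 (SE 0.132, adjusted p = 0.0138), and Nlrp10, an NLR protein of the epidermis, at -0.73 (adjusted p = 0.0462). Of 35 measured chemokines 0 passed, which for a list of this size is near the 2.18% of all rows. Cxcl1 differed by 0.07 (adjusted p = 0.922) and Ccl20 by -0.17 (adjusted p = 0.725).

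Gsta4, a glutathione transferase that clears lipid peroxidation products, showed values of 2.76, 0.85 and 1.96 in KO and -0.24, -1.12 and -1.05 in WT. KO replicate 2 lay lowest of the KO arrays, still above every WT array. The difference was 2.66 (SE 0.527, adjusted p = 0.0231). Among 21 measured glutathione transferases Gsta4 was the 1 that passed (4.76%, against 2.18% of all rows), and the median of that list was 0.01. Its call was lost without KO replicate 3 or WT replicates 2 or 3 (adjusted p of 0.0934, 0.0944 and 0.11).

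Gsdmc, a member of the pore-forming gasdermins, read 1.22, 0.48 and 0.78 in KO against -0.86, -1.08 and -0.74 in WT. The genotypes were well apart, with a difference of 1.72 (SE 0.351, adjusted p = 0.0263). It was the 1 of 8 measured gasdermins that passed (12.5%, against 0.366% of all rows higher). The mouse carries close copies of Gsdmc whose signal the probes may share. Rab31, a small GTPase of vesicle transport, read 2.19, 0.94 and 1.47 in KO and -0.07, -0.25 and -0.36 in WT, a difference of 1.76 (SE 0.298, adjusted p = 0.0143). Neither gene passed without KO replicate 3, WT replicate 2 or WT replicate 3, with adjusted p of 0.0934, 0.1 and 0.0984 for Gsdmc and of 0.0557, 0.0582 and 0.0843 for Rab31.

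The antimicrobial peptide gene Defb3, a beta-defensin, was higher in KO. It was the 1 of 23 measured alarmins and antimicrobial peptides that passed (4.35%, against 2.18% of all rows). It read 1.36, 0.19 and 0.78 in KO and -0.16, -0.31 and -0.34 in WT, a difference of 1.04 (SE 0.229, adjusted p = 0.0331). KO replicate 1 was the highest array for Defb3 and for other alarmins that were not called. S100a8, a subunit of calprotectin, read 1.82, -0.15 and 0.33 in KO and -0.04, 0.06 and -0.11 in WT (difference 0.69, adjusted p = 0.385). Its genotypes overlapped, and KO replicate 1 stood out most. Lcn2, the iron-binding protein lipocalin 2, differed by 1.04 (adjusted p = 0.214) and the protease inhibitor Slpi by 0.63 (adjusted p = 0.0598). Without KO replicate 3, WT replicate 2 or WT replicate 3, none of the 23 passed. The list of neutrophil and monocyte markers had 0 of 27 members called, near the 2.18% of all rows for a list of this size. Its means were 0.33, 0.04 and 0.02 in KO replicates 1 to 3 against 0.05, -0.03 and 0.02 in WT replicates 1 to 3. The part of this list in the higher values of KO replicate 1 was not tested.

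Further genes with a difference of at least 0.8 upwards came from several functions. Slfn2, a schlafen gene of immune quiescence, differed by 1.31 (SE 0.302, adjusted p = 0.0384) and the interferon-inducible gene Ifi205 by 0.80 (adjusted p = 0.032). They were the 2 of 48 measured interferon-stimulated genes that passed (4.17%, against 0.366% of all rows higher). The median of that list was 0.03. Its mean was 0.15, 0.01 and 0.07 in KO replicates 1 to 3 and -0.00066, -0.01 and -0.03 in WT replicates 1 to 3. In 8 of the 48 genes every KO array lay above every WT array and in 1 below, where all rows had 7.42% above and 10.3% below. Samhd1, which breaks down deoxynucleotides, differed by 0.83 (adjusted p = 0.015), and Abcg2, an efflux transporter of drugs and porphyrins, by 0.88 (SE 0.141, adjusted p = 0.0112). Abcg2 read 1.08, 0.53 and 0.54 in KO and -0.09, -0.18 and -0.22 in WT, with no overlap. The collagen-binding receptor kinase gene Ddr2 differed by 1.14 (SE 0.239, adjusted p = 0.0287), and Gadl1, a decarboxylase of acidic amino acids, by 1.29 (SE 0.301, adjusted p = 0.0404). Stom, the membrane protein stomatin, differed by 1.004 (adjusted p = 0.0493), and Epb41l3, a membrane skeleton protein, by 0.91 (adjusted p = 0.0257).

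**Figure D3:**
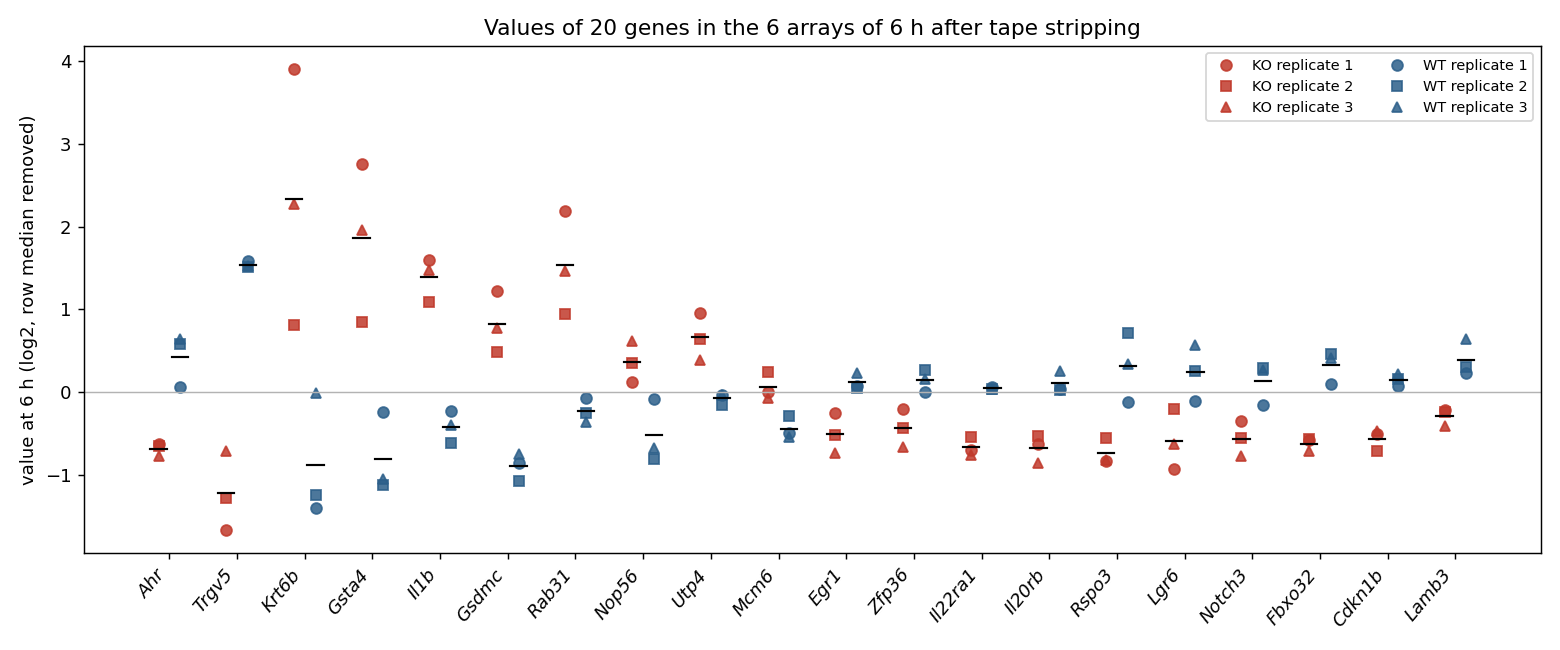
Values (y axis, log2 with the row median removed) of 20 genes in the 3 KO arrays (red) and the 3 WT arrays (blue) of 6 h, with the symbol giving the replicate and the black bar the mean of the 3. Krt6b, Gsta4, Il1b, Gsdmc and Rab31 lie higher in every KO array than in any WT array, with KO replicate 1 at the top of each, while Ahr, Trgv5, Il22ra1, Fbxo32 and Lamb3 lie lower in every KO array.

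Of 70 measured genes of ribosome production 7 were higher in KO and 0 lower (10%, against 0.366% of all rows higher). Such genes build the nucleolar machines that process ribosomal RNA and assemble the subunits, and are known to be driven by growth signals. In all, 62 of the 70 differences lay above 0, and the median was 0.33, against 0.01 over all rows. The list mean was 0.50, 0.16 and 0.18 in KO replicates 1 to 3 and 0.06, -0.07 and -0.09 in WT replicates 1 to 3, so KO replicate 1 was the highest array while the other KO arrays were also above every WT array. The 7 passing members were Nop56, Utp4, Lyar, Nip7, Wdr12, Wdr75 and Rrp9. Leaving out KO replicate 2, KO replicate 3, WT replicate 2 or WT replicate 3 left 0 of them called, leaving out KO replicate 1 left 2 members called and leaving out WT replicate 1 left 10.

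Utp4, a scaffold protein of the small subunit processome, read 0.95, 0.65 and 0.39 in KO and -0.03, -0.16 and -0.03 in WT. The genotypes were separated and the WT arrays nearly equal, and the difference was 0.74 (SE 0.167, adjusted p = 0.0362). Nip7, which helps assemble the large subunit, read 0.66, 0.55 and 0.70 in KO and 0.20, -0.05 and -0.24 in WT, a difference of 0.67 (SE 0.139, adjusted p = 0.0276) with WT replicate 1 nearest to KO. Lyar, a nucleolar protein of dividing cells, differed by 0.72 (adjusted p = 0.0378), Wdr12 of the PeBoW complex by 0.67 (adjusted p = 0.0481), Wdr75 of the small subunit processome by 0.45 (adjusted p = 0.048) and the U3 small nucleolar RNP protein Rrp9 by 0.44 (adjusted p = 0.0466). Nop56, a core protein of box C/D small nucleolar RNPs, has 3 rows on the array. The row with the largest spread differed by 0.89 (adjusted p = 0.0387) and the others by 0.39 (adjusted p = 0.552) and 0.43 (adjusted p = 0.265). Outside the list, the exosome subunit gene Exosc8 differed by 0.83 (adjusted p = 0.0197), Rsl24d1, a factor of late large-subunit assembly, by 0.78 (adjusted p = 0.0276) in 1 of its rows, and Cmss1, a homologue of a yeast ribosomal subunit protein, by 0.84 (adjusted p = 0.0481).

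Promoter windows were available for 64 of the 70 ribosome biogenesis genes, and the core letters of the AhR element, GCGTG on either strand, stood in 39 of them (60.9%). Over all genes tested, 5804 of 16990 windows held these letters (34.2%). A window here is the 250 bases before the start of the gene, from RefSeq on GRCm38.p6. A match describes the letters only, not a site that AhR occupies. They stood in 22 of 64 windows of the genes higher in KO (34.4%) and in 141 of 333 windows of the genes lower in KO (42.3%). Windows were held for 76.6% of all genes, 78.0% of the higher and 79.3% of the lower ones, all under 80%, so a comparison of these shares, that of the ribosome list with all genes included, is void and they only describe the windows held. The 250 bases upstream of the start are shown for Nip7 and Rrp9, as genes higher in KO, and for the immediate early genes Junb and Atf3, as genes lower in KO (described below), with GCGTG or its complement CACGC in capitals and each read 5' to 3' on the strand of the gene. Nip7 lies on the plus strand (chr8:107056627-107056876), Rrp9 on the plus strand (chr9:106477059-106477308), Junb on the minus strand (chr8:84978749-84978998) and Atf3 on the minus strand (chr1:191183334-191183583).
Nip7: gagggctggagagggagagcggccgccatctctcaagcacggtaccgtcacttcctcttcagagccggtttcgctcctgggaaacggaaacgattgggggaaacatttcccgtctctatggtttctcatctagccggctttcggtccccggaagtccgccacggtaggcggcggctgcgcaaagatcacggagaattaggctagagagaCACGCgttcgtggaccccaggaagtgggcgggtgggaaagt
Rrp9: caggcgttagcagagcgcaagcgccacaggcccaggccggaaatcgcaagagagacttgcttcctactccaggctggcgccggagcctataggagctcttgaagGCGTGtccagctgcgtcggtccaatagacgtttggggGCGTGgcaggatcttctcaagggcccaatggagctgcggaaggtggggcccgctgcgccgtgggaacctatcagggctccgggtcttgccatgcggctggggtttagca
Junb: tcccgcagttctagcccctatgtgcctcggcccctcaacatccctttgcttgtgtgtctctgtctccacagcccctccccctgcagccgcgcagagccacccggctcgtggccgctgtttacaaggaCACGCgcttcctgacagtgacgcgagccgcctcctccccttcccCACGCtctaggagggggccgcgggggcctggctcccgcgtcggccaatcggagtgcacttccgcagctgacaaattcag
Atf3: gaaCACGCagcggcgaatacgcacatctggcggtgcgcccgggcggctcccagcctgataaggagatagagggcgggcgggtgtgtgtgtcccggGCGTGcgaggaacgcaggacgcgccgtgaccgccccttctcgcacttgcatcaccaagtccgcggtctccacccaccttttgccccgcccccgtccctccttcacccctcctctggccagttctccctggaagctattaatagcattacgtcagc
Nip7 holds 1 match and each of the others 2. These genes were picked to be shown, and most windows of the genes that differed in either direction lack the letters.

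The lists of DNA replication and of mitosis had medians on opposite sides of 0. Of 43 measured genes of replication and the G1/S transition 2 were higher and 0 lower (4.65%, against 0.366% of all rows higher). Of their differences 30 lay above 0, with a median of 0.13, while 52.5% of all rows lay above 0. Mcm6, a subunit of the replicative helicase, read 0.01, 0.24 and -0.07 in KO and -0.49, -0.29 and -0.55 in WT, a difference of 0.50 (SE 0.111, adjusted p = 0.0339) that was 0.50 within either class of label number. Dut, the enzyme that keeps uracil out of DNA, differed by 0.53 (SE 0.102, adjusted p = 0.0208) in 1 of its rows and by 0.09 (adjusted p = 0.4915) in the other. Mcm3 and Mcm2, of the same helicase, differed by 0.59 (adjusted p = 0.0513) and 0.49 (adjusted p = 0.071). Neither passing gene was called without KO replicate 2, KO replicate 3, WT replicate 2 or WT replicate 3. By contrast, 34 of 38 measured genes of G2 and mitosis lay below 0, with a median of -0.28, but 0 passed. Their list means were -0.39, -0.26 and -0.21 in KO replicates 1 to 3 and -0.29, 0.08 and 0.13 in WT replicates 1 to 3, so WT replicate 1 lay among the KO arrays. Foxm1, a transcription factor of mitotic genes, differed by -0.41 (adjusted p = 0.0712).

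Some immediate early genes were lower in KO, 6 of 27 transcription factors and 3 of 39 regulators. These genes need no new protein for their activation and encode transcription factors of the AP-1, EGR and KLF families. Of the transcription factors, none was higher (22.2% lower, against 1.82% of all rows lower), 24 lay below 0, and the median was -0.41. Egr1, a zinc finger factor induced by growth factors and stress, read -0.25, -0.52 and -0.74 in KO and 0.07, 0.06 and 0.24 in WT. The genotypes were apart, with KO replicate 3 the lowest array and KO replicate 1 the nearest to WT, and the difference was -0.63 (SE 0.132, adjusted p = 0.0289). Its relative Egr2 differed by -0.46 (SE 0.0961, adjusted p = 0.0285). Junb, an AP-1 subunit needed for normal skin, read -0.35, -0.53 and -0.48 in KO against -0.10, 0.04 and 0.16 in WT, a difference of -0.49 (SE 0.1, adjusted p = 0.0262). The AP-1 subunit Jun differed by -0.53 (adjusted p = 0.0444), the stress factor Atf3 by -0.50 (adjusted p = 0.0339) and Klf4, a factor of barrier formation, by -0.30 (adjusted p = 0.0392). Fos, Fosb and Egr3 had differences of -0.66, -0.74 and -0.48 with adjusted p of 0.069, 0.057 and 0.0612. The list mean was -0.16, -0.14 and -0.24 in KO replicates 1 to 3 and -0.03, 0.23 and 0.28 in WT replicates 1 to 3.

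A second group of fast genes, which switch signals off again, lay on the same side. Of 39 measured regulators of RNA decay and signalling 3 were lower (7.69%, against 1.82% of all rows lower). Their differences lay below 0 in 33, and the median was -0.25. Zfp36, whose protein destroys the messages of inflammatory cytokines, read -0.21, -0.43 and -0.66 in KO and 0.01, 0.27 and 0.16 in WT, a difference of -0.58 (SE 0.121, adjusted p = 0.0286). The antiproliferative gene Btg2 differed by -0.61 (SE 0.132, adjusted p = 0.0307) and the kinase gene Sik1 by -0.50 (adjusted p = 0.0336). With KO replicate 2, KO replicate 3, WT replicate 2 or WT replicate 3 left out, 0 of the 6 transcription factors and 0 of these 3 were called. Without KO replicate 1 the counts were 9 and 8, and without WT replicate 1 they were 14 and 7. Differences were larger within the lower label numbers than within the higher ones, with Egr1 at -0.78 and -0.32 and Zfp36 at -0.76 and -0.22.

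**Figure D4:**
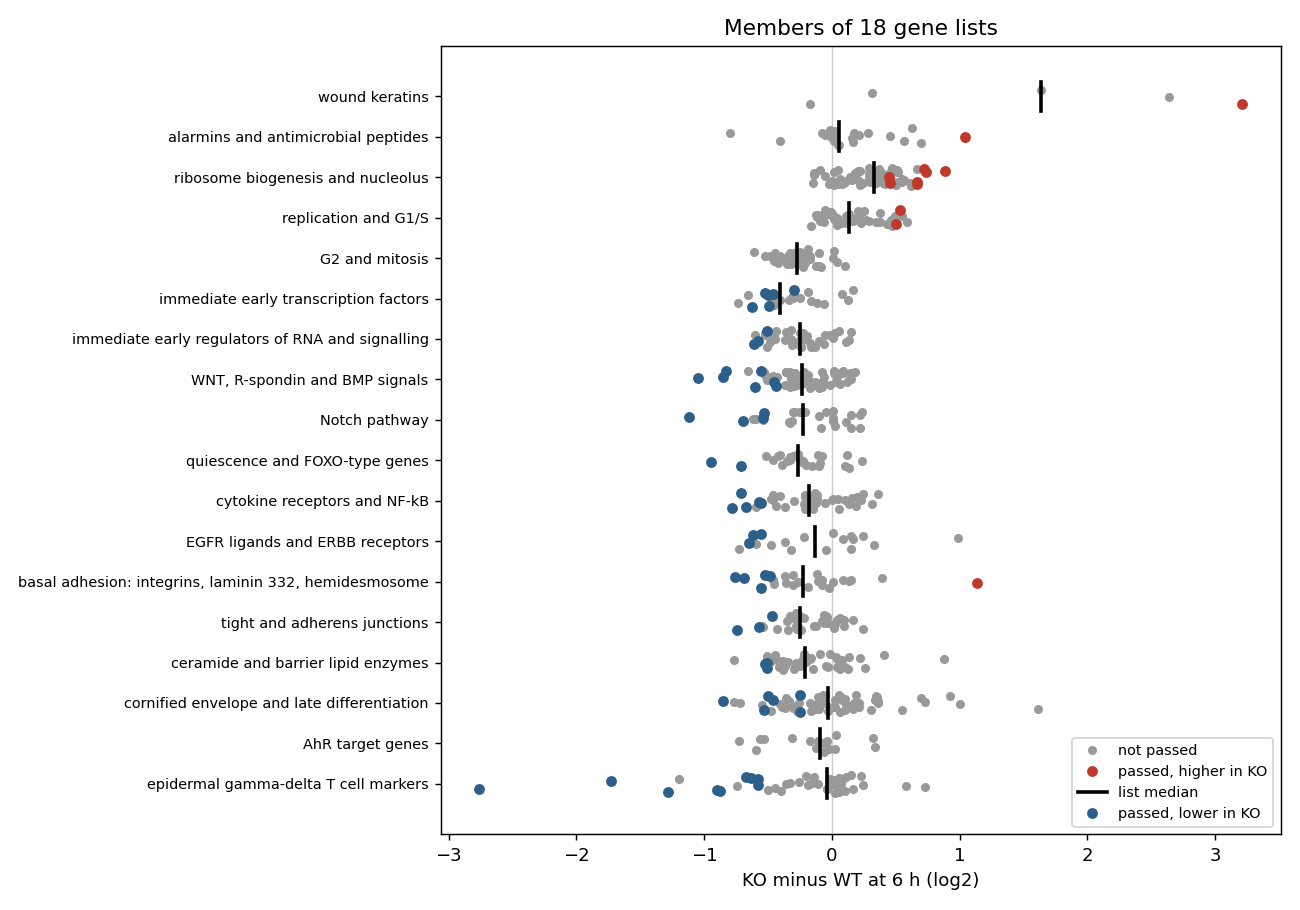
Difference between KO and WT at 6 h (x axis, log2) of each measured member of 18 gene lists, with members that passed in red (higher in KO) or blue (lower) and the median of the list as a black bar. Ribosome biogenesis lies to the right with a median of 0.33 and 7 red points, the immediate early transcription factors to the left with a median of -0.41 and 6 blue points, and the T cell markers have a median of -0.04 with a tail of blue points down to -2.76.

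Of 42 measured cytokine receptors and NF-kB components 5 were lower in KO and 0 higher (11.9%), with 13 above 0 and a median of -0.18. Il22ra1, the receptor subunit that makes keratinocytes responsive to interleukin 22, read -0.70, -0.55 and -0.76 in KO and 0.06, 0.04 and 0.04 in WT. Both genotypes were tight and well separated, and the difference was -0.71 (SE 0.101, adjusted p = 0.00726). It passed whichever array of 6 h was left out, with adjusted p between 0.00671 and 0.0484, and measured -0.69 within the lower label numbers and -0.76 within the higher ones. Il20rb, the subunit shared by receptors of interleukins 19, 20 and 24, read -0.62, -0.54 and -0.86 in KO and 0.04, 0.03 and 0.25 in WT, a difference of -0.78 (SE 0.15, adjusted p = 0.0208). The interleukin 6 receptor gene Il6ra differed by -0.55 (adjusted p = 0.0434), the interferon gamma receptor subunit gene Ifngr2 by -0.57 (adjusted p = 0.0442) and Tnfrsf19, a receptor of the TNF family found in hair follicle stem cells, by -0.67 (adjusted p = 0.0499). Without KO replicate 3, WT replicate 2 or WT replicate 3, Il22ra1 was the 1 receptor of the list still called. Il34, the keratinocyte cytokine on which Langerhans cells depend, read -0.55, -0.46 and -0.82 in KO and 0.08, -0.01 and 0.22 in WT, a difference of -0.71 (SE 0.122, adjusted p = 0.0143). It was the 1 of 32 measured other cytokines and growth signals that passed (3.1%, near the 1.82% of all rows lower).

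WNT, R-spondin and BMP signalling, which governs stem cells of the epidermis and the hair follicle, had 7 of 58 measured genes lower and 0 higher. That was 12.1% of the list, against 1.82% of all rows lower. In all, 43 differences lay below 0, and the median was -0.23. Rspo3, a secreted R-spondin that strengthens WNT signals, read -0.84, -0.56 and -0.82 in KO and -0.12, 0.71 and 0.34 in WT. WT replicate 1 lay below the other WT arrays, yet above all KO arrays, and the difference was -1.05 (SE 0.196, adjusted p = 0.0199). Lgr6, an R-spondin receptor and stem cell marker, read -0.92, -0.21 and -0.63 in KO and -0.11, 0.25 and 0.57 in WT, a difference of -0.83 (SE 0.171, adjusted p = 0.0271). The co-receptor genes Lrp4 and Lrp5 differed by -0.85 (adjusted p = 0.048) and -0.44 (adjusted p = 0.0437), the dickkopf receptor gene Kremen1 by -0.56 (adjusted p = 0.0339) and Dkkl1 by -0.45 (adjusted p = 0.046). Axin2, a feedback target of WNT signals, differed by -0.60 (adjusted p = 0.0405) in 1 row and by 0.10 (adjusted p = 0.765) in its other row. The inhibitors Sostdc1 and Apcdd1, named for the size of their differences and not on the list, differed by -0.90 (SE 0.161, adjusted p = 0.0167) and -0.91 (SE 0.198, adjusted p = 0.033). The list had 9 genes called when replicate 1 of either genotype was left out, 3 without KO replicate 2, and 0 without KO replicate 3, WT replicate 2 or WT replicate 3.

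Notch signalling, which drives basal keratinocytes into differentiation, had 4 of 28 measured genes lower and 0 higher. That was 14.3% of the list, against 1.82% of all rows lower, and the median was -0.22. Neurl1b, a ubiquitin ligase that acts on Notch ligands, read -0.63, -0.70 and -1.28 in KO and -0.02, 0.35 and 0.43 in WT, a difference of -1.12 (SE 0.175, adjusted p = 0.0112). The receptor gene Notch3 read -0.35, -0.56 and -0.77 in KO and -0.15, 0.29 and 0.27 in WT, a difference of -0.70 (SE 0.121, adjusted p = 0.0143), measuring -0.94 within the lower label numbers and -0.20 within the higher ones. Lfng, a sugar transferase that tunes Notch, differed by -0.53 (adjusted p = 0.0271) and the ligand gene Jag2 by -0.54 (adjusted p = 0.0481). Of these, 0 were called without KO replicate 3, WT replicate 2 or WT replicate 3.

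Of 27 measured quiescence and FOXO-type genes, which go with growth arrest, 2 were lower and 0 higher (7.41%, against 1.82% of all rows lower). Their differences lay below 0 in 23, and the median was -0.27. Fbxo32, a ubiquitin ligase switched on by FOXO factors, read -0.58, -0.57 and -0.71 in KO and 0.10, 0.46 and 0.42 in WT. The KO arrays were nearly equal and the difference was -0.95 (SE 0.141, adjusted p = 0.0102). Cdkn1b, the cyclin-dependent kinase inhibitor p27, read -0.51, -0.70 and -0.47 in KO and 0.07, 0.16 and 0.22 in WT, a difference of -0.71 (SE 0.143, adjusted p = 0.0251). Fbxo32 had an adjusted p of 0.0514 without KO replicate 3 and of 0.0676 without WT replicate 3, and Cdkn1b was called only without KO replicate 1 or WT replicate 1.

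Among growth factor receptors the ERBB family had 3 of 18 measured ligands, receptors and regulators lower (16.7%). Erbb3 read -0.29, -0.45 and -0.70 in KO and -0.05, 0.20 and 0.35 in WT, a difference of -0.65 (SE 0.146, adjusted p = 0.0355). Erbb2, its usual partner, read 0.0032, -0.65 and -0.81 in KO and -0.02, 0.14 and 0.29 in WT. Its genotypes overlapped because KO replicate 1 lay with WT replicate 1, and its difference of -0.62 (adjusted p = 0.0487) came from the lower label numbers (-0.94), with 0.02 within the higher ones. Lrig1, an inhibitor of ERBB receptors that marks stem cells, differed by -0.55 (adjusted p = 0.0437). The neuregulin gene Nrg1, a ligand of ERBB3, differed by 0.98 (adjusted p = 0.0933) and was at 1.47 in KO replicate 1 against 0.38 and 0.37 in the other KO arrays. Without KO replicate 2, KO replicate 3, WT replicate 2 or WT replicate 3, 0 of the 3 were called. 1 of 6 families picked out after their values had been seen was that of the Eph receptors. Of 21 Eph receptors and ephrins, which signal between touching cells, 6 were lower and 0 higher (28.6%, against 1.82% of all rows lower), among them Ephb6 at -0.81 (adjusted p = 0.0172), Epha1 at -0.63 (adjusted p = 0.0143), Ephb3 at -0.57 (adjusted p = 0.0289) and the ephrin gene Efnb1 at -0.52 (adjusted p = 0.0203). The median of the family was -0.09, with 8 differences above 0. Because the family was picked with its values in view, its share is no test against that of all rows. Omitting KO replicate 2 left 2 of the family called, omitting KO replicate 3 or WT replicate 2 left 1, and omitting WT replicate 3 left 0.

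Adhesion of the basal layer had 5 of 24 measured genes lower and 1 higher (25%, against 2.18% of all rows passing). The median was -0.23. Lamb3, a chain of the laminin that anchors basal cells, read -0.22, -0.24 and -0.41 in KO and 0.23, 0.30 and 0.64 in WT, a difference of -0.68 (SE 0.109, adjusted p = 0.0112). The integrin gene Itgb5 read -0.76, -0.54 and -0.70 in KO and -0.14, 0.10 and 0.33 in WT, a difference of -0.76 (SE 0.118, adjusted p = 0.0112). Col7a1, the collagen of the anchoring fibrils, differed by -0.55 (SE 0.0962, adjusted p = 0.0143), and Fermt1, the integrin activator kindlin-1, by -0.49 (adjusted p = 0.0359). The collagen receptor genes parted, with Ddr2 higher, as given above, and Ddr1 lower by 1 of its rows, at -0.52 (adjusted p = 0.0257), while its other row differed by 0.18 (adjusted p = 0.312). Lamb3 and Itgb5 were the 2 lower genes still called without WT replicate 2, and 0 genes of the list without KO replicate 3 or WT replicate 3. Krt15, a keratin of basal and bulge stem cells, differed by -0.61 (SE 0.136, adjusted p = 0.0339).

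Genes of cell contacts and of the barrier had members that were lower and few that were higher. Of 39 measured genes of tight and adherens junctions 3 were lower (7.69%), with 31 below 0 and a median of -0.25. The claudin gene Cldn8 read -0.48, -0.48 and -0.35 in KO and 0.06, 0.57 and 0.28 in WT, a difference of -0.74 (SE 0.146, adjusted p = 0.0223). Cldn23 differed by -0.47 (adjusted p = 0.0359) and the scaffold gene Tjp3 by -0.57 (adjusted p = 0.0208). Of 18 desmosome genes 2 were lower (11.1%, against 1.82% of all rows lower). They were the plakins Evpl (-0.50, adjusted p = 0.0143) and Ppl (-0.46, adjusted p = 0.0219). The desmosome core genes Dsp and Jup differed by -0.26 (adjusted p = 0.217) and -0.30 (adjusted p = 0.106). Without KO replicate 2, KO replicate 3, WT replicate 2 or WT replicate 3, 0 of the 3 junction genes were called.

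Late differentiation was split. Of 61 measured genes of the cornified envelope 6 were lower and 0 higher (9.84%), but the median was -0.03 and 29 lay above 0. Calml3, a calmodulin-like protein of differentiating cells, read -0.54, -0.61 and -0.45 in KO and 0.02, -0.03 and 0.01 in WT. The tight groups gave a difference of -0.53 (SE 0.0768, adjusted p = 0.00726). Flg2, a filaggrin-type protein, differed by -0.86 (adjusted p = 0.0402), and Dmkn and Sbsn, secreted proteins of the upper layers, by -0.25 (adjusted p = 0.03) and -0.25 (adjusted p = 0.0413). On the other side, the envelope genes Lce3c and Sprr2d, which rise in injury, were highest in KO replicate 1. For both, KO replicate 3 also lay above every WT array and KO replicate 2 lay within the WT range. Lce3c read 1.90, -0.04 and 0.34 in KO and 0.04, -0.20 and -0.40 in WT (difference 0.92, adjusted p = 0.348), and Sprr2d 1.52, -0.14 and 0.26 in KO and 0.19, -0.29 and -0.35 in WT (difference 0.70, adjusted p = 0.39). Of 45 transcription factors of epidermal differentiation 4 were lower, namely Ovol1 (-0.94, adjusted p = 0.0378), Cebpa (-0.54, adjusted p = 0.0308), Dlx3 (-0.43, adjusted p = 0.0343) and Klf4, and 1 was higher, the ETS factor gene Elf5 (0.52, adjusted p = 0.0271). Together they were 11.1% of that list, while 2.18% of all rows passed. Without KO replicate 3, 1 of the 6 envelope genes was called, and without WT replicate 3 none was.

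Of 44 enzymes of ceramides and other barrier lipids 3 were lower (6.82%), with a median of -0.21. Smpd1, an acid sphingomyelinase that makes ceramide, differed by -0.53 (SE 0.0956, adjusted p = 0.0172) in 1 of its rows, the ceramidase gene Acer1 by -0.51 (adjusted p = 0.0248) and the ceramide synthase gene Cers6 by -0.51 (adjusted p = 0.0326). Dgat2, which completes triglycerides, differed by -0.59 (SE 0.092, adjusted p = 0.0112), as the 1 of 34 neutral lipid genes that passed (2.94%, near the 1.82% of all rows lower). Of 28 eicosanoid enzymes 4 were lower (14.3%), namely the leukotriene C4 synthase gene Ltc4s (-0.45, adjusted p = 0.0143), the lipoxygenase genes Alox12 (-0.55, adjusted p = 0.0346) and Alox5 (-0.69, adjusted p = 0.0387, in 1 of its rows), and the epoxide hydrolase gene Ephx1 (-0.55, adjusted p = 0.0378). Of 30 genes of retinoid metabolism 2 were lower (6.67%, against 1.82% of all rows lower). Adh7, an alcohol dehydrogenase that oxidises retinol, read -0.50, -0.66 and -0.80 in KO and 0.68, 0.14 and 0.23 in WT, a difference of -1.01 (SE 0.158, adjusted p = 0.0112), and the retinoid X receptor gene Rxra differed by -0.51 (adjusted p = 0.027). Without KO replicate 3, WT replicate 2 or WT replicate 3, 0 ceramide and 0 eicosanoid genes were called.

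Of 16 measured classical AhR targets 0 were called at an adjusted p under 0.05, near the 2.18% of all rows for a list of this size. Among the differences 12 lay below 0, and the median was -0.09. In 4 targets every KO array lay below every WT array and in 0 above, where all rows had 10.3% below and 7.42% above. Limma called 1 target lower without WT replicate 1, and 2 within label numbers below 3000. Cyp1b1, a CYP1 enzyme, read -0.60, -0.55 and -0.38 in KO and 0.07, 0.10 and 0.08 in WT, so the genotypes did not overlap, and the difference was -0.59 (SE 0.162, adjusted p = 0.072). Nqo1, a quinone reductase, read -0.55, -0.87 and -0.19 in KO and 0.02, -0.01 and -0.02 in WT (difference -0.53, adjusted p = 0.0671). Cyp1a1 differed by -0.13 (adjusted p = 0.726) with overlapping genotypes, and the repressor gene Ahrr by -0.07 (adjusted p = 0.726). Arnt, the partner of AhR, differed by -0.02 (adjusted p = 0.97).

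Of 48 measured markers of the resident T cells of the epidermis 9 were lower in KO and 0 higher (18.8%, against 1.82% of all rows lower), while the median was -0.04 and 19 lay above 0. The list mean was -0.12, -0.08 and 0.01 in KO replicates 1 to 3 and 0.18, 0.22 and 0.21 in WT replicates 1 to 3. Trgv5, the V segment of the receptor of dendritic epidermal T cells, read -1.67, -1.28 and -0.71 in KO and 1.59, 1.51 and 1.52 in WT. The WT arrays were almost equal and no KO array came near them, a difference of -2.76 (SE 0.294, adjusted p = 0.00312), or 6.77-fold lower if the logs are base 2. The T cell surface gene Cd7 read -0.82, -0.83 and -0.63 in KO and 1.24, 0.78 and 0.88 in WT, a difference of -1.73 (SE 0.312, adjusted p = 0.0167). Cd3e, a chain of the receptor complex, read -0.63, -0.18 and -0.36 in KO and 0.98, 0.56 and 1.14 in WT, a difference of -1.28 (SE 0.228, adjusted p = 0.0152). Trat1, Klrb1b, Cd96, Prf1, Ccr4 and Il2rb made up the rest, with differences from -0.90 to -0.58. Trgv5 passed in all fits that left out 1 array, and it was the 1 marker of the list still called without KO replicate 3 or WT replicate 3. Thy1, an antigen of these cells and of fibroblasts, lay on the other side, at 0.73 (adjusted p = 0.0885).

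Of 32 measured markers of Langerhans and other MHC class II cells 1 passed, Ltc4s (3.1%, near the 2.18% of all rows). The langerin gene Cd207 differed by 0.05 (adjusted p = 0.944). None of the measured markers of melanocytes (11), dermal fibroblasts (18), endothelium (13), skeletal muscle (17), adipocytes (10), mast cells (9), Merkel cells (8) or sebaceous glands (11) passed. Among 21 hair follicle markers 1 did, Lrig1 (4.76%). The list means of dermal fibroblast markers lay between 0.04 and 0.09 in KO and between -0.09 and 0.03 in WT. Of suprabasal keratinocyte markers, all 8 lay below 0 with a median of -0.31 and 1 passed, while the 7 basal markers measured had a median of -0.05 and 1 passed, Krt15. Suprabasal list means were -0.42, -0.21 and -0.19 in KO replicates 1 to 3 and -0.09, 0.29 and 0.17 in WT replicates 1 to 3, and their part in the lower barrier genes was not tested.

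The genotype difference at 6 h was then set against the difference before stripping. KO and WT differed in 23 rows at 0 h (0.0978%) and in 4 rows at 24 h (0.017%), and 8 of the 513 rows of 6 h had also passed at 0 h. Of those 8, the 6 T cell genes Trgv5, Trat1, Cd3e, Il2rb, Prf1 and Klrb1b were lower at both times, and for Trgv5 the difference was -3.11 at 0 h, -2.76 at 6 h and -2.97 at 24 h. Fbxo32 passed in opposite directions, at 0.94 before stripping (adjusted p = 0.0219) and at -0.95 at 6 h. The remaining gene, Anp32b, a histone chaperone, was higher at 6 h by 0.26 (adjusted p = 0.0452) and lower at 0 h, at -0.36 (adjusted p = 0.0399). A direct test of the 6 h difference minus the 0 h difference called 172 rows (0.731%), 55 more positive and 117 more negative at 6 h, and 106 of the 513 rows were among them.

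For Fbxo32 this change of the difference was -1.89 (adjusted p = 0.00288). Its KO arrays went from 0.59, 1.01 and 0.71 at 0 h to the low values given above, while the WT arrays had been at 0.05, -0.25 and -0.31. Il22ra1 showed the same form, with 0.04, 0.31 and 0.11 in KO and -0.25, -0.37 and -0.48 in WT at 0 h, a difference of 0.52 (adjusted p = 0.0855) that changed by -1.23 (adjusted p = 0.00465). Rspo3 changed by -1.83 (adjusted p = 0.0181), Il34 by -1.10 (adjusted p = 0.0185), Il20rb by -1.17 (adjusted p = 0.0323), Cdkn1b by -1.06 (adjusted p = 0.0386), Axin2 by -1.01 (adjusted p = 0.0413) and Egr1 by -0.91 (adjusted p = 0.0454). In the other direction Gsta4 changed by 3.52 (adjusted p = 0.047), Rab31 by 2.28 (adjusted p = 0.033), Utp4 by 1.29 (adjusted p = 0.0323), Lyar by 1.17 (adjusted p = 0.0426) and Mcm6 by 0.76 (adjusted p = 0.0454). Krt16, which was not called at 6 h, changed by 3.496 (adjusted p = 0.0391), since its difference at 0 h was -1.86 (adjusted p = 0.211). Over ribosome biogenesis the median difference was -0.28 at 0 h, 0.33 at 6 h and 0.13 at 24 h, and 5 of its 70 members changed between 0 h and 6 h. Of the 48 T cell markers 1 changed between the times, and it was none of those lower at 6 h, with Trgv5 at 0.35 (adjusted p = 0.809) and Cd3e at 0.32 (adjusted p = 0.757).

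The count of 172 rows depended on single arrays. Omitting KO replicate 2 of 0 h left 2 rows, omitting WT replicate 2 or 3 of that time left 13 or 14, and omitting KO replicate 3 or 1 left 39 or 50, whereas omitting WT replicate 1 of 0 h raised it to 749. Among the arrays of 6 h, omitting KO replicate 2 left 109 rows and KO replicate 3 left 31. Omitting WT replicate 2 or 3 left 25 or 24, and omitting WT replicate 1 raised the count to 441.

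**Figure D5:**
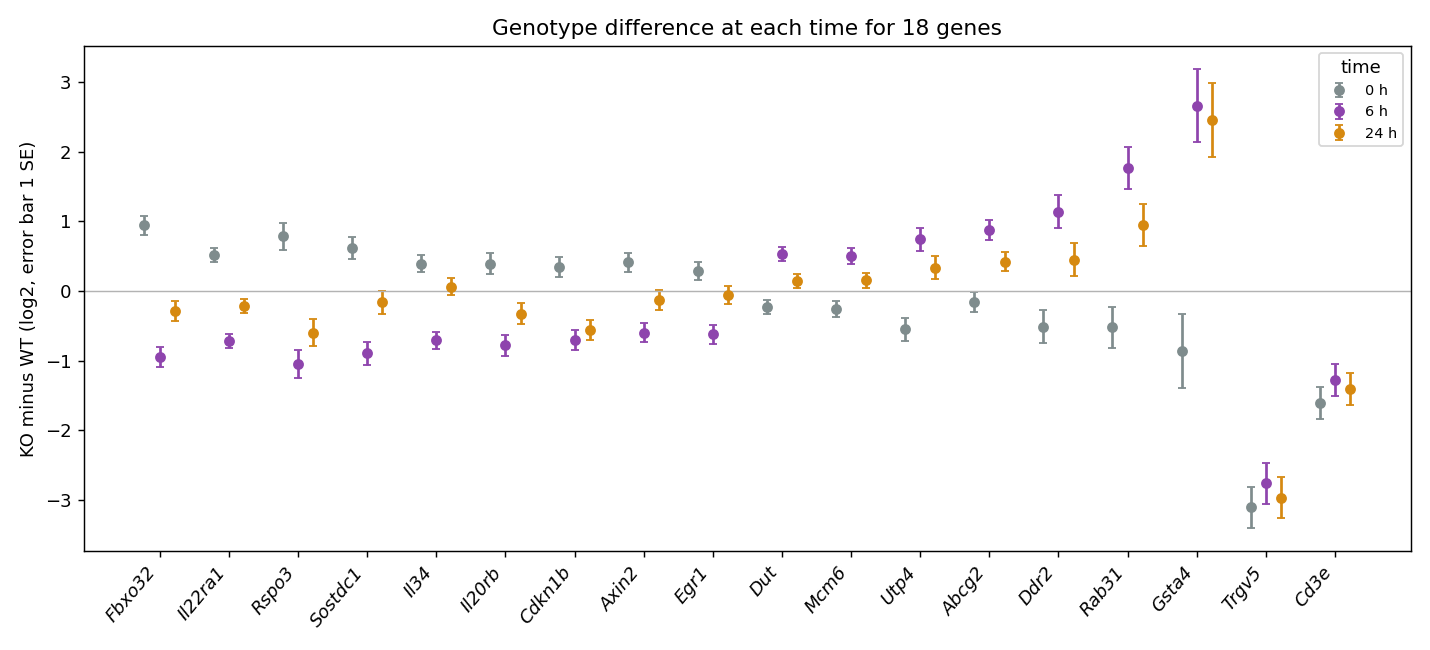
KO minus WT difference (y axis, log2, bars of 1 SE) at 0 h (grey), 6 h (purple) and 24 h (orange) for 18 genes. From Fbxo32 to Egr1 the difference is above 0 at 0 h and below 0 at 6 h, from Dut to Gsta4 the reverse holds, and for Trgv5 and Cd3e it is negative at all 3 times.

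Against 24 h, limma called 0 rows for a change of the genotype difference (1575 at an unadjusted p under 0.05, smallest adjusted p 0.411), and 4 rows without KO replicate 1 of 6 h. Of the 513 rows, 445 had the same sign at 24 h and 221 had it at 0 h. Trgv5 was the 1 that also passed at 24 h. The median difference of the 86 higher rows was 0.15 at 24 h and that of the 427 lower rows was -0.13. The rows were chosen for their difference at 6 h, so these medians and counts of signs are no test of a change between the times. Gsta4 and Il1b differed at 24 h by 2.45 (adjusted p = 0.263) and 2.04 (adjusted p = 0.197), Il22ra1 by -0.22 (adjusted p = 0.739) and Egr1 by -0.06 (adjusted p = 0.966).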

How the data were processed

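RNA from mouse epidermal sheets was read on 18 Affymetrix arrays, 3 in each of 6 groups of genotype and time, per the labels. The authors deposited 33793 rows of log values, read here as log2. Every row has a median of 0 over the 18 arrays (100% of rows, tolerance 1e-06). Normalization, log base and software are not stated by the labels or headers, and array number and spread between arrays, not depth, limit precision.

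Rows were named through the platform annotation, which gives 1 symbol for 23521 rows, several for 1814 and none for 8458. These stand for 22180 genes, and the row with the largest SD over 18 arrays represents each of the 1082 genes with several rows. Differences were tested with limma 3.58.1 in R 4.3.3 on the means of the 6 groups (lmFit and eBayes, 12 residual degrees of freedom), with Benjamini-Hochberg adjustment over 23521 rows and a threshold of 0.05. The steps were tested on simulated data. An exact permutation test of 3 arrays against 3 cannot go below 0.1. The study design gives 3 littermates per genotype and time, but no label states that every array is a separate animal. The p-values therefore measure the spread between these samples.

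The lists (42 of pathways and 15 of cell types, with 1360 of 1474 genes measured), their members and the tests were chosen with earlier results of these data known. Named genes are Ahr, the 25 largest passing differences in each direction (predicted genes and small RNAs skipped), passing list members, the 4 members of each list with the smallest p, and all measured members of lists with at most 12. The Eph and ephrin family, 1 of 6, was added after its values were seen. Alternatives covered normalization, filters, the arrays fitted, arrays left out, blocks and thresholds. Leaving out arrays of 0 h and 24 h, and counting list members with arrays of 6 h left out, were chosen after seeing the data.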

Additional observations from a re-analysis of the deposited data

Results flagged for a closer look

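Of the 513 rows that passed at 6 h, 106 also passed limma's test of the 6 h difference minus the 0 h difference, and the 32 of them that the rule for named genes covers are given here. Each value below is that change of the difference, in which genotype and label number class are partly mixed at 0 h, as given above. Among genes more negative at 6 h, the ubiquitin ligase gene Fbxo32 changed by -1.89, the R-spondin gene Rspo3 by -1.83, BC016579 by -1.66, the WNT and BMP inhibitor gene Sostdc1 by -1.51, the serotonin transporter gene Slc6a4 by -1.32, Il22ra1 by -1.23, Il20rb by -1.17 and Il34 by -1.10. Smaller changes in that direction were those of Fam189a2 (-1.06), Cdkn1b (-1.06), Cldn8 (-1.06), Efs (-1.02), Axin2 (-1.01), Itgb5 (-0.93), Egr1 (-0.91), Fermt1 (-0.78), Lfng (-0.77), Calml3 (-0.73), Acer1 (-0.72) and Dgat2 (-0.70). Adjusted p over these 20 genes ran from 0.00288 for Fbxo32 to 0.0454 for Egr1.

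In the other direction Gsta4 changed by 3.52, Rab31 by 2.28, the decarboxylase gene Gadl1 by 2.08, the collagen receptor gene Ddr2 by 1.65, Utp4 by 1.29, Lyar by 1.17, the efflux transporter gene Abcg2 by 1.04, the calcium-binding protein gene Nucb2 by 1.03 and the chaperone gene Dnajb11 by 1.02. Dut and Mcm6 changed by 0.76 each and Elf5 by 0.73. Adjusted p over these 12 genes ran from 0.0323 for Utp4 to 0.047 for Gsta4.

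Outside the rows with a single gene symbol, 42 of 10272 rows passed at 6 h when all rows were tested together (0.409%), 15 higher and 27 lower in KO, and they are not named here.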

How the results depend on the processing

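Of 244 genes examined under 23 settings, 5 changed sign, all within the pair of arrays with label numbers from 3000. There Erbb2 differed by 0.021, Pfkl by 0.0143, Slc2a1 by 0.0713, Pglyrp4 by 0.15 and Mt1 by -0.0389, and of these Erbb2 alone passed in the fit of 18 arrays. The count of 513 rows at 6 h stayed within 1.5 times with arrays shifted to median 0 (490), all rows tested (407), the least variable rows left out (717), robust eBayes (455), the label number class as a block (652), rows of a gene averaged (517) and values read as natural logs (513). It was 287 after quantile normalization, 1025 with array weights, 0 in the 6 arrays of 6 h, 202 with the arrays of 0 h and 6 h, 230 with those of 6 h and 24 h, 1660 within label numbers below 3000, 0 within those from 3000, 21 with a difference of at least 1 required and 1126 at an adjusted p under 0.1. Leaving out 1 array of 6 h gave 16 to 1068 rows. The 172 rows whose difference changed from 0 h became 79 with all rows tested, 354 without the least variable rows, 95 with robust eBayes, 864 with array weights, 72 in the 12 arrays of both times, 0 within label numbers from 3000, 52 with a change of at least 1 and 525 at an adjusted p under 0.1. Leaving out 1 array gave 2 to 749. Against 24 h the count ranged from 0 to 4 with 1 array left out, and no fit within label numbers below 3000 was possible because no array of 24 h has one. With the replicate number as a block (replicate block), the counts were 314 at 6 h, 49 against 0 h and 0 against 24 h. Deviations of same-numbered KO and WT arrays correlated at 0.251, 0.0675 and 0.00997 for replicates 1 to 3. The first was the highest of any KO array with any WT array. The third lay below the correlation of KO replicate 3 with WT replicate 2 (0.17). With so few arrays per genotype, these values cannot decide whether the replicate numbers pair the samples. Where a count moved, the cause was not tested, apart from thresholds and smaller sets of arrays that change it by construction. Signal over background could not be assessed from centred values.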

Other observations

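Some genes that passed at 6 h fall outside the lists and the rule for named genes, and are given here as values chosen after they were seen. Cd8a, a co-receptor of cytotoxic T cells and some dendritic cells, differed by 0.57 (adjusted p = 0.0112 in limma), opposite to the T cell markers that were lower. Clec7a, the beta-glucan receptor of myeloid cells, differed by 0.59 (adjusted p = 0.0112 in limma).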
